A study of Mus musculus with 13 samples.

Results

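Semaphorins, plexins and neuropilins were followed through SM1 tumours treated with BRAF and MEK inhibitors. Every gene whose symbol names a numbered and lettered semaphorin, a plexin of families A to D or a neuropilin was taken, which gave 31 genes of the 18193 symbols on the array. These were 20 semaphorins, 9 plexins and 2 neuropilins, read by 78 probe sets, and all 31 passed the filter on low values that left 13785 genes to test. SM1 is a transplantable mouse melanoma with the BRAF V600E mutation, and here it grew in C57BL/6 mice that all received splenocytes by adoptive cell transfer. Total RNA of whole tumours was measured on 13 Affymetrix GeneChip mouse arrays. In control recipients the splenocytes came from C57BL/6 mice, and these tumours were given vehicle (2 arrays) or dabrafenib, a BRAF inhibitor, together with trametinib, a MEK inhibitor (2 arrays). In pmel-1 recipients they came from the pmel-1 strain, a T cell receptor transgenic whose T cells recognise gp100, a protein of melanocytes. These tumours were given vehicle (2 arrays), dabrafenib (2 arrays), trametinib (2 arrays) or both (3 arrays). The sources used here give no doses, times or ages, and do not say whether replicates came from separate animals. The p-values then measure only the spread between these arrays, which may be technical.

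Semaphorins are extracellular signals, first known for steering growing axons, that share a sema domain. Class 3 members are secreted and most of them bind a neuropilin, which passes the signal on through a plexin, whereas the membrane-bound classes 4 to 7 mostly bind plexins directly. Plexins turn ligand binding into a change of small GTPases and of the cytoskeleton, and in tumours the family is known for roles in vessel growth, cell migration and immune cell traffic.

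The values are RMA log2 intensities, so that a difference of 1 is a doubling, and a gene was called changed at a Benjamini-Hochberg adjusted p under 0.05 in limma's moderated test. Log2 fold changes are given ± SE of the fit, which shares 1 variance per gene over all groups. A group whose arrays all read under 5.79, the level of the filter, gets no fold. All 9 melanocyte markers were measured, and their mean was 10.95 to 11.22 over the vehicle arrays and 12.37 to 12.57 over the drug-treated arrays. On the combination, averaged over recipients, 8 of the 9 were called up and 0 down, but by unlike amounts. Trpm1 read 7.99 to 8.66 on vehicle and 11.63 to 12.48 on drug, and Gpr143 6.78 to 7.89 and 11.10 to 11.70. Mlana read 12.93 to 13.06 and 12.95 to 13.30, and Tyrp1 was under the filter level on every vehicle array. Arrays of a group correlated at 0.983 to 0.994 over the 13785 genes tested, and arrays of different groups at 0.905 to 0.994. The log2 ratio of 3′ to 5′ actin and Gapdh probes, a sign of RNA quality, was 0.60 to 1.65 on the drug-treated arrays of pmel-1 recipients and 0.18 to 0.42 on all others. Adipoq, an adipocyte gene, read 10.05 on combination replicate 2, 10.32 on dabrafenib replicate 2 and 9.30 on trametinib replicate 1 of the pmel-1 recipients, against at most 7.54 elsewhere. Acta1, a skeletal muscle gene, read 9.90 on vehicle replicate 3 of the control recipients against at most 6.61 elsewhere.

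With both kinds of recipient averaged, the combination raised both neuropilins, Plxna1, Plxnc1, Plxnb3, Sema6d, Sema4g, Sema4a and Sema7a. It lowered 5 secreted semaphorins (Sema3g, Sema3d, Sema3e, Sema3a and Sema3f), and also Sema5a, Sema4d and Plxnb2. In all, 17 of 31 members changed, 9 upward and 8 downward, while 52.6% of all genes tested were called in this comparison, 28.1% upward and 24.5% downward. A share of 54.8% is near that background, so the count is not a result about the family. The median change of the members was 0.03 and that of all genes 0.01, and the median size of the change regardless of sign was 0.40 for the members and 0.28 for all genes.

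By class, 0 of 7 class 3 semaphorins rose and 5 fell, with a median of -0.40. Of 6 class 4 semaphorins 2 rose and 1 fell, of 2 in class 5 none rose and 1 fell, of 4 in class 6 only Sema6d changed, and the sole class 7 member rose. Plexins gave 3 rises and 1 fall among 9, and both neuropilins rose.

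Whole tumours were measured, so fewer cells of a type and less RNA per cell cannot be told apart. Marker lists named for other cell types moved with the treatments. Macrophage markers (7 of 8 tested) averaged 7.76 to 7.84 on the control vehicle arrays, 8.31 to 8.57 with the combination in control recipients, 8.26 to 8.44 on pmel-1 vehicle, 8.95 to 9.50 on dabrafenib, 8.25 to 8.66 on trametinib and 9.02 to 9.53 on the combination in pmel-1 recipients. Fibroblast markers (6 of 6 tested) ran from 8.57 to 10.00, 10.54 to 11.13, 8.58 to 8.70, 8.44 to 10.49, 9.31 to 9.67 and 9.0 to 10.0 in the same order of groups. Schwann cell markers (4 of 4 tested) averaged 10.42 to 10.75 and 10.98 to 11.16 on vehicle in control and pmel-1 recipients and 11.75 to 12.09 on every drug-treated array. Pericyte markers (4 of 4 tested) were at 10.53 to 11.01 on vehicle and 9.74 to 10.51 on drug. Members within each of these lists differed among themselves. In pmel-1 recipients Mrc1 of the macrophage list read 9.07 and 9.50 on vehicle and 8.95, 9.62 and 9.25 on the combination. Csf1r read 8.85 and 9.12 against 10.95, 11.02 and 10.90. Cd163, mostly under the filter level, read 5.71 and 6.24 against 4.18, 4.78 and 5.14. Pdgfra of the fibroblast list read 6.84 and 7.13 against 5.87, 6.38 and 6.58, and Lum 6.05 and 7.27 against 7.42, 7.97 and 8.46. Over both kinds of recipient, Mbp of the Schwann cell list read 9.49 to 10.91 on vehicle and 12.38 to 12.82 on drug. Erbb3 read 12.82 to 12.92 and 12.74 to 13.16. Mcam read 11.87 to 12.07 on vehicle and 10.05 to 10.88 on drug, while Rgs5 read 10.07 to 11.03 and 9.96 to 11.47. Mcam and Cspg4 of the pericyte list are also known from melanoma cells. Values of whole tumours do not show which cells, tumour cells included, the genes of the Schwann cell list came from. The part of all these markers in the changes of the family was not tested.

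**Figure D1:**
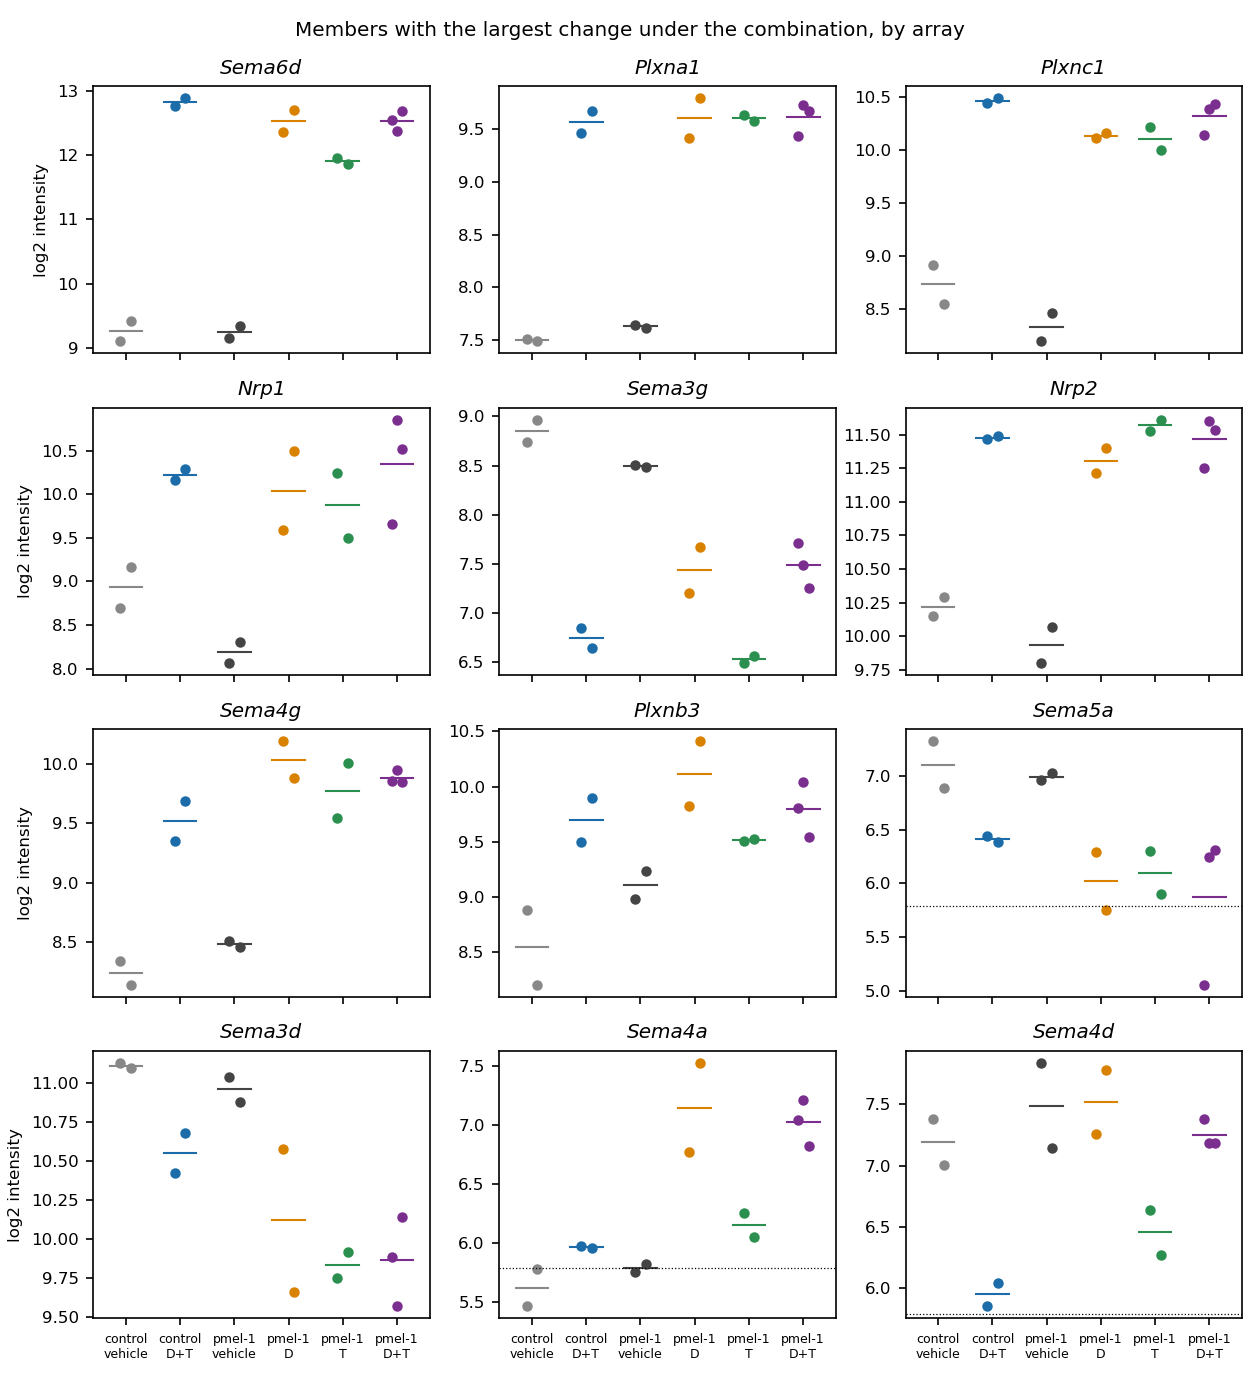
Log2 intensity (vertical axes, each to its own range) of the 12 genes with the largest called change under the combination, averaged over recipients, in the 6 groups; D is dabrafenib and T trametinib. Each dot is 1 array, each bar the group mean, and the dotted line the filter level of 5.79; every drug-treated array of Sema6d lies at or above 11.86 and every vehicle array at or below 9.42.

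The neuropilins are the co-receptors that hold class 3 semaphorins and vascular endothelial growth factors at the cell surface, and both rose. Nrp2 read 10.15 and 10.29 on vehicle and 11.47 and 11.49 on the combination in control recipients. The pmel-1 recipients gave 9.80 and 10.07 on vehicle and 11.26, 11.60 and 11.54 on the combination. Every combination array stood above every vehicle array in both kinds of recipient. The rise was 1.26 ± 0.14 (adjusted p = 6.08e-05) in control and 1.53 ± 0.13 (adjusted p = 7.98e-06) in pmel-1 recipients, and 2.63-fold (1.39 ± 0.09) over both.

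Nrp1 spread more widely between arrays. It read 8.70 and 9.16 on vehicle and 10.17 and 10.29 on the combination in control recipients, against 8.07 and 8.30 on vehicle and 9.66, 10.85 and 10.52 on the combination in pmel-1 recipients. The groups did not overlap, although combination replicate 1 of the pmel-1 recipients lay well below the other 2 arrays of its group. Over both kinds of recipient the change was 1.73 ± 0.26 (3.31-fold, adjusted p = 2.12e-04), the 183rd largest rise of 13785 genes. The call in control recipients alone (1.29 ± 0.39, adjusted p = 0.0230) was lost without vehicle replicate 1 or either combination array of that group, at adjusted p of up to 0.131 with changes between 1.06 and 1.35. In pmel-1 recipients alone it was 2.16 ± 0.35 (adjusted p = 5.61e-04), which became 1.52 (adjusted p = 0.0524) with the 3′ to 5′ ratio as a covariate.

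Among the plexins, Plxna1 and Plxnc1 changed most. Plxna1, which signals for class 3 semaphorins bound to neuropilins and is a direct receptor of Sema6d, read 7.51 and 7.49 on control vehicle and 7.64 and 7.62 on pmel-1 vehicle. On the combination it read 9.46 and 9.67 in control and 9.43, 9.72 and 9.67 in pmel-1 recipients. The 4 vehicle arrays thus lay close together, and every combination array stood far above them. The rise was 2.06 ± 0.14 (adjusted p = 3.86e-06) in control and 1.98 ± 0.13 (adjusted p = 2.74e-06) in pmel-1 recipients, and 4.05-fold over both, the 107th largest of all genes.

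Plxnc1, the plexin that binds Sema7a, read 8.91 and 8.55 on vehicle and 10.44 and 10.49 on the combination in control recipients. On the pmel-1 side it read 8.20 and 8.46 on vehicle and 10.14, 10.38 and 10.43 on the combination, again without overlap. The rise was 3.63-fold over both (1.86 ± 0.10, adjusted p = 2.05e-07). The stretch of 250 bases before its start, on the minus strand of chr10:94944846-94945095 (GRCm38.p6, RefSeq), is shown because this gene had the largest rise of any plexin with a promoter in the sequence table. None of the 4 motifs searched, which are described with Sema6d, lay in it, so no base is in capitals.
Plxnc1: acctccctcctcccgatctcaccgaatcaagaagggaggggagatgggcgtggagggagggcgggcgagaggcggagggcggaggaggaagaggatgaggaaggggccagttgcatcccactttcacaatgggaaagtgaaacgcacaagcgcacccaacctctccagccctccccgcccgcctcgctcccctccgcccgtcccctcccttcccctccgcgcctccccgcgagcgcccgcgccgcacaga

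The B plexins, receptors of class 4 and class 5 semaphorins, moved in different directions. Plxnb3, a receptor of Sema5a, read 8.89 and 8.21 on vehicle and 9.49 and 9.89 on the combination in control recipients, and 8.98 and 9.24 against 9.81, 10.04 and 9.54 in pmel-1 recipients. No group overlapped its vehicle group. It rose by 1.15 ± 0.25 (adjusted p = 0.00471) in control and by 0.69 ± 0.23 (adjusted p = 0.0305) in pmel-1 recipients. Leaving out single arrays put the adjusted p at up to 0.0535 in control recipients (without vehicle replicate 3 or combination replicate 3) and up to 0.188 in pmel-1 recipients (without either vehicle array or combination replicate 1 or 2). In pmel-1 recipients the change was 0.18 with the 3′ to 5′ ratio as a covariate (adjusted p = 0.737) and 0.48 as the mean of all probe sets (adjusted p = 0.0631).

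Plxnb2, which binds class 4 semaphorins, was lower with treatment in control recipients, at 10.90 and 10.85 on vehicle and 10.15 and 10.31 on the combination. The values in pmel-1 recipients were closer, 10.63 and 10.68 against 10.40, 10.37 and 10.39, still without overlap. It fell by 0.64 ± 0.10 (adjusted p = 5.94e-04) in control and by 0.27 on the log2 scale in pmel-1 recipients. The latter call was lost without any one of the 5 arrays compared, at adjusted p of up to 0.146. Plxnb1, the receptor of Sema4d, differed by 0.27 ± 0.12 over both kinds of recipient and was not called.

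The remaining plexins were not called for the combination. Plxnd1, the receptor of Sema3e in vessels, read 9.70 to 10.36 over all 13 arrays and differed by 0.03 (95% interval -0.20 to 0.26). Plxna2 differed by 0.15 (-0.09 to 0.39), Plxna3 by -0.22 (-0.45 to 0.01) and Plxna4 by -0.09 (-0.30 to 0.11). These are plexins of the neuropilin pathway, and the intervals leave room for changes of up to about the size seen for Plxnb2.

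**Figure D2:**
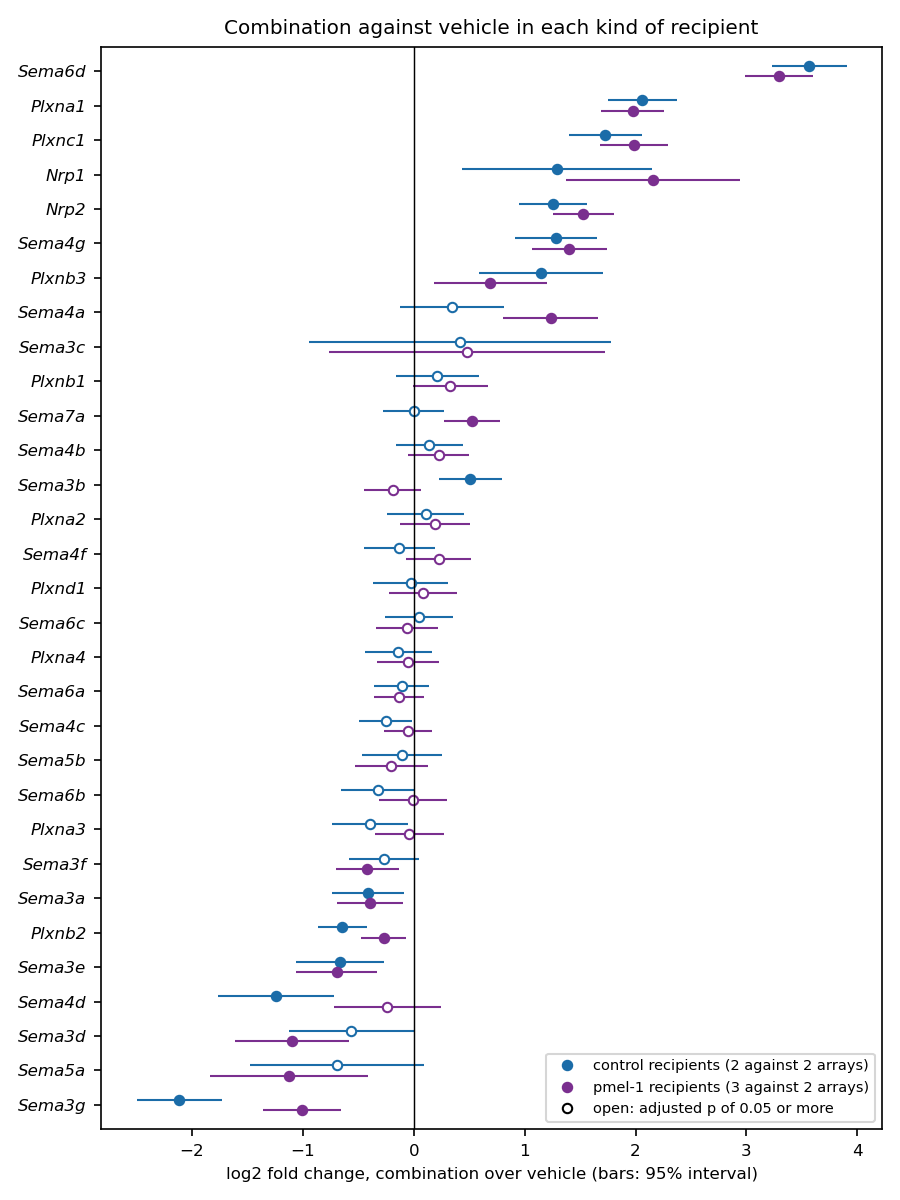
Log2 fold change of the combination over vehicle (horizontal axis) for all 31 genes, in control recipients (blue, 2 against 2 arrays) and pmel-1 recipients (purple, 3 against 2 arrays). Dots are the fitted changes and lines their 95% intervals, open dots have an adjusted p of 0.05 or more, and Sema6d lies farthest to the right at 3.56 and 3.29.

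Sema6d, a transmembrane semaphorin whose receptor is Plxna1, had the largest change of the family. In control recipients it read 9.10 and 9.42 on vehicle and 12.76 and 12.89 on the combination. The pmel-1 recipients gave 9.16 and 9.34 on vehicle and 12.55, 12.39 and 12.69 on the combination. The drug-treated arrays stood about as far above vehicle in one kind of recipient as in the other. The rise was 3.56 ± 0.15 (11.8-fold, adjusted p = 1.63e-07) in control and 3.29 ± 0.14 (9.81-fold, adjusted p = 2.29e-07) in pmel-1 recipients, and over both it was the 9th largest of 13785 genes. The difference between the recipients was -0.27 (95% interval -0.73 to 0.19).

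RefSeq gives Sema6d 2 transcript starts with a window in the table, on the plus strand of chr2:124089719-124089968 and chr2:124653331-124653580 (GRCm38.p6). Both are shown because no other member changed as much. Each window was searched on both strands for CACGTG (the E-box of MITF and MYC type), CATGTG (a related E-box), TGANTCA (the AP-1 type site) and CCGGAA (the ETS core), and matches are in capitals. The first window holds 1 CACGTG, 23 bases before the start, and the second holds none of the 4.
Sema6d first start: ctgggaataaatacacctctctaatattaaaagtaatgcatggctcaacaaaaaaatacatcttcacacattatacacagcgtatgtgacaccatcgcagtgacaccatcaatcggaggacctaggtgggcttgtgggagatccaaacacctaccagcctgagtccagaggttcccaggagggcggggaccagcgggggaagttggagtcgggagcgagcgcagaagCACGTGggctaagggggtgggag
Sema6d second start: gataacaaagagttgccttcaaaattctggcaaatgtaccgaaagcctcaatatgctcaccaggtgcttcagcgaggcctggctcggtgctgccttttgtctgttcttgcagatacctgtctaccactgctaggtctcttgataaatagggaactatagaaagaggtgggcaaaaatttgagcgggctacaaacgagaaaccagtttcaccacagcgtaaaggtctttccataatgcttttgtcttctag

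CACGTG occurs in 6.02% of all 32851 promoter windows of this length and in 2 of the 37 windows of the family (5.41%). CATGTG occurs in 12.3% of all windows and in 1 of 37, TGANTCA in 6.75% and in 3 of 37, and CCGGAA in 12% and in 4 of 37. The windows cover 26 of the 31 members. Their median GC content was 64.0% against 52.4% over all windows, and their median number of CpG steps 13 against 6. A match describes these letters and is no sign that a factor binds there.

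The other class 6 members were not called. Sema6a differed by -0.12 (95% interval -0.29 to 0.04), Sema6b by -0.16 (-0.39 to 0.06) and Sema6c by -0.01 (-0.21 to 0.20), and none passed in any other comparison either.

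The secreted class 3 semaphorins went down where they were called over both kinds of recipient. Sema3g, which binds neuropilin 2, read 8.74 and 8.97 on vehicle and 6.84 and 6.64 on the combination in control recipients. The pmel-1 recipients gave 8.51 and 8.48 on vehicle and 7.71, 7.49 and 7.25 on the combination. The groups did not overlap, and the combination arrays of control recipients lay below all combination arrays of pmel-1 recipients. It fell by 2.11 ± 0.18 in control recipients, a 4.32-fold lower level (adjusted p = 1.12e-05). In pmel-1 recipients it fell by 1.01 ± 0.16, a 2.01-fold lower level (adjusted p = 4.56e-04). Over both this was the 180th largest fall. The window before its start, on the plus strand of chr14:31217623-31217872 (GRCm38.p6, RefSeq), is shown as that of the largest fall, and it holds none of the 4 motifs.
Sema3g: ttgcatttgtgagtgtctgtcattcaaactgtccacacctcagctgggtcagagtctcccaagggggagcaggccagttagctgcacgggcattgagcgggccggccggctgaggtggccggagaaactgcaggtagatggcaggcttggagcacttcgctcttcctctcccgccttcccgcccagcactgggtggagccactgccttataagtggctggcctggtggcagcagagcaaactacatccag

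Sema3d, a secreted guidance cue, read 11.13 and 11.09 on vehicle and 10.42 and 10.68 on the combination in control recipients, and 11.04 and 10.88 against 9.88, 9.57 and 10.14 in pmel-1 recipients. All treated arrays were lower than all vehicle arrays. The fall was 0.83 on the log2 scale over both (-0.83 ± 0.17, adjusted p = 0.00185) and -1.10 ± 0.23 in pmel-1 recipients (adjusted p = 0.00281), where it came to -0.42 (adjusted p = 0.239) with the 3′ to 5′ ratio as a covariate. In control recipients alone it was not called (-0.56 ± 0.26, adjusted p = 0.114).

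Sema3e, which binds Plxnd1 without a neuropilin, read 7.18 and 7.36 on vehicle and 6.83 and 6.38 on the combination in control recipients, and 7.50 and 7.03 against 6.63, 6.45 and 6.65 in pmel-1 recipients. Its groups did not overlap and it fell by 0.66 ± 0.18 (adjusted p = 0.0146) and by 0.69 ± 0.17 on the log2 scale. Without vehicle replicate 1 the call in pmel-1 recipients was lost (-0.46, adjusted p = 0.0838), and without vehicle replicate 3 or combination replicate 3 so was that in control recipients, at adjusted p of up to 0.147.

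Sema3a, the growth cone collapsing ligand of neuropilin 1, was near the filter level, at 5.83 to 6.28 on the 4 vehicle arrays and 5.55 to 5.75 on the 5 combination arrays, so no fold is given. The call in control recipients alone (adjusted p = 0.0485) was lost in 18 of the 22 alternative analyses that tested it. Sema3f, a ligand of neuropilin 2, read 9.98 and 10.00 on vehicle and 9.74 and 9.70 on the combination in control recipients, and 10.05 and 9.96 against 9.80, 9.38 and 9.58 in pmel-1 recipients. Every combination array was below every vehicle array. Over both it fell by 0.34 ± 0.10 (adjusted p = 0.0116), or by 0.24 on the log2 scale with the 3′ to 5′ ratio as a covariate (adjusted p = 0.122). Its other probe sets gave larger falls, described further on.

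Sema3b went another way in control recipients, where it read 10.49 and 10.58 on vehicle and 10.94 and 11.15 on the combination. The pmel-1 arrays gave 10.92 and 10.62 against 10.52, 10.56 and 10.65, and there the groups overlapped. It rose by 0.51 ± 0.13 (adjusted p = 0.00987) in control recipients and differed by -0.19 in pmel-1 recipients. The rise in control recipients was lost without vehicle replicate 1 or combination replicate 3, at adjusted p of up to 0.0898. Sema3c read at most 6.48, on most arrays under 5.79, and was not called.

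Of the membrane-bound class 4 semaphorins, Sema4g rose in both kinds of recipient. It read 8.34 and 8.14 on vehicle and 9.36 and 9.69 on the combination in control recipients, and 8.51 and 8.46 against 9.85, 9.95 and 9.85 in pmel-1 recipients. No treated array came near the vehicle arrays. The rise was 1.28 ± 0.17 (adjusted p = 1.92e-04) and 1.40 ± 0.15 (adjusted p = 4.52e-05), or 2.54-fold over both.

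Sema4a, known from dendritic cells and T cell activation, and Sema4d, which lymphocytes carry and which binds Plxnb1, were the class 4 members called between the kinds of recipient on the combination, as given further on. Sema4a read 5.46 and 5.78 on control vehicle, under the filter level, and 5.98 and 5.96 on the combination there, a difference that was not called (adjusted p = 0.247). In pmel-1 recipients it read 5.76 and 5.83 on vehicle and 7.04, 7.21 and 6.82 on the combination, a rise of 1.23 ± 0.20 (2.35-fold, adjusted p = 4.45e-04). Sema4d read 7.38 and 7.01 on vehicle and 5.85 and 6.05 on the combination in control recipients, where it fell by 1.24 ± 0.24 (adjusted p = 0.00206). In pmel-1 recipients it read 7.84 and 7.14 on vehicle and 7.38, 7.19 and 7.19 on the combination, which overlap (-0.24 ± 0.22, adjusted p = 0.417). The other class 4 members, Sema4b, Sema4c and Sema4f, were not called for the combination and differed by 0.18, -0.15 and 0.05 over both.

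Sema5a, a ligand of Plxnb3, read 7.32 and 6.89 on vehicle and 6.45 and 6.39 on the combination in control recipients, and 6.96 and 7.03 against 5.06, 6.25 and 6.31 in pmel-1 recipients. Combination replicate 1 of the latter was the lowest of all, and no treated array overlapped vehicle. The fall over both was 0.91 ± 0.24 on the log2 scale (adjusted p = 0.00799). In pmel-1 recipients it was -1.12 ± 0.33 with every array and -0.71 without that replicate, still called, while the call was lost without either vehicle array (adjusted p of up to 0.0777). Sema5b differed by -0.16 (95% interval -0.40 to 0.09) and was not called.

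Sema7a, the lipid-anchored ligand of Plxnc1 and of integrins, read 9.05 and 9.02 on vehicle and 9.10 and 8.98 on the combination in control recipients, with overlap and no call. In pmel-1 recipients it read 8.36 and 8.71 on vehicle and 8.99, 9.04 and 9.17 on the combination, a rise of 0.53 ± 0.12 (adjusted p = 0.00310). Without vehicle replicate 1 it was 0.35 (adjusted p = 0.0505). Over both it was 0.26 ± 0.09 (adjusted p = 0.0218), and this call was lost without any one of combination replicate 2 and vehicle replicate 3 of the control group and vehicle replicate 1 of the pmel-1 group, at adjusted p of up to 0.102.

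Within control recipients 13 of 31 members were called (8 up, 5 down), where 35.4% of all genes were (18.7% up, 16.7% down). Within pmel-1 recipients 16 were called (9 up, 7 down), where 45.6% of all genes were (24.3% up, 21.2% down). Neither share stands far from its background. The 2 comparisons have no array in common, and 7 members rose in both, 4 fell in both and 0 moved in opposite directions. That is 84.6% of the calls in control and 68.8% of those in pmel-1 recipients, and for all genes the shares were 77.2% and 59.9%.

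The count in pmel-1 recipients fell to 9 without vehicle replicate 1. With the 3′ to 5′ ratio of each array as a covariate it fell to 7 (Nrp2, Plxna1, Plxnc1, Sema3g, Sema4a, Sema4g and Sema6d), and this ratio does not overlap between treated and vehicle arrays of that group.

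The test of the difference between recipients called 0 of 31 members, and 0.283% of all genes (0.232% with a positive and 0.0508% with a negative difference). At an unadjusted p under 0.05 limma gave 6 members and 2204 of all genes, so the 6 are not a result about the family. The smallest p-values belonged to Sema3g (1.10 ± 0.24, adjusted p = 0.0901) and Sema3b (-0.70 ± 0.17, adjusted p = 0.127). Sema4d (1.0 ± 0.32, adjusted p = 0.189), Sema4a (adjusted p = 0.192, with no size given because control vehicle was under the filter level) and Sema7a (0.53 ± 0.17, adjusted p = 0.188) followed, so that a call in one kind of recipient and none in the other is not shown to be a difference between them.

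**Figure D3:**
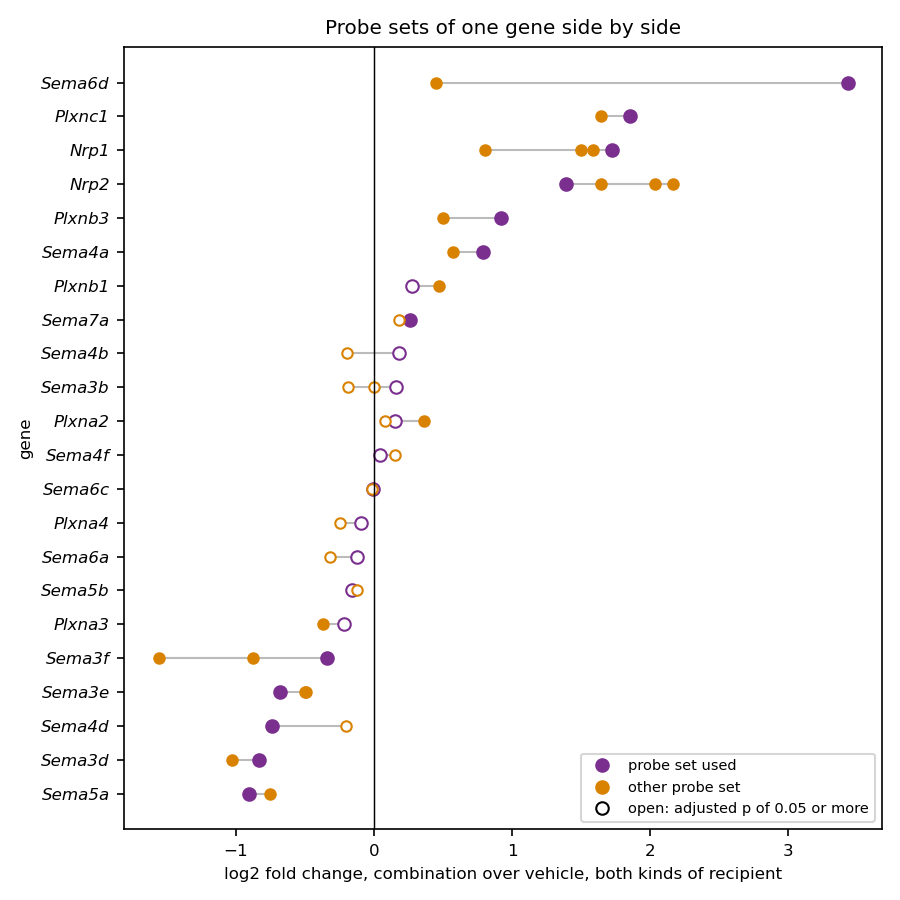
Log2 fold change of the combination over vehicle, both kinds of recipient averaged (horizontal axis), for each gene with more than 1 probe set above the filter. Purple marks the probe set used, orange the others, and open dots an adjusted p of 0.05 or more; Nrp1 and Nrp2 have 4 each to the right of 0 and Sema4b has 1 on each side.

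Of the 17 called members, 12 had another probe set above the filter, and for all 12 the other probe sets had the same sign in this comparison. In 10 of the 12 another probe set was called too, in a fit over probe sets, and 0 had one called in the opposite direction. The 4 probe sets of Nrp2 rose by 1.39, 2.16, 2.04 and 1.64 and those of Nrp1 by 1.73, 1.59, 1.50 and 0.80. The second probe set of Plxnc1 rose by 1.64. For Sema3f the probe set used had the smallest fall, -0.34, against -1.56 ± 0.14 and -0.88 ± 0.08 for the other 2, and in control recipients the latter were called where the first was not.

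Sema4d rested on 1 of its 3 probe sets, since the second differed by only -0.20 ± 0.12 (adjusted p = 0.184) and the third did not pass the filter. The large rise of Sema6d also came from a single probe set. The second one above the filter had a mean of 5.92 and a change of 0.45, and 2 more were dimmer. That second probe set was called on the combination in control recipients. In pmel-1 recipients it was not called on the combination or on either drug alone. Averaging all probe sets of a gene, dim ones included, gave 1.05 for Sema6d, 1.05 for Plxna1 and 0.83 for Plxnc1, all still called. Plxnb2, Sema3g and Sema4g have 1 probe set each.

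Probe sets of 2 genes disagreed in sign where one was called. The second probe set of Sema4b fell in pmel-1 recipients on the combination (-0.42 ± 0.11, adjusted p = 0.00897) while the first differed by 0.22 ± 0.13. In control recipients the second probe set of Sema3b rose like the first (0.40 ± 0.14) and the third differed by -0.16 ± 0.17.

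Dabrafenib and trametinib alone were given to pmel-1 recipients, and both comparisons use the same 2 vehicle arrays as the combination there, so their values are set side by side. Dabrafenib gave 14 called members (8 up, 6 down), where 41.4% of all genes were called (21.8% up, 19.6% down). Trametinib gave 14 as well (10 up, 4 down), where 38.6% of all genes were called (19.5% up, 19.1% down). Those counts came to 7 and 8 with the 3′ to 5′ ratio as a covariate. Without vehicle replicate 1 dabrafenib had 9, and without the arrays high in Adipoq or Acta1, an alternative added after seeing the data, dabrafenib had 9 and trametinib 11.

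**Figure D4:**
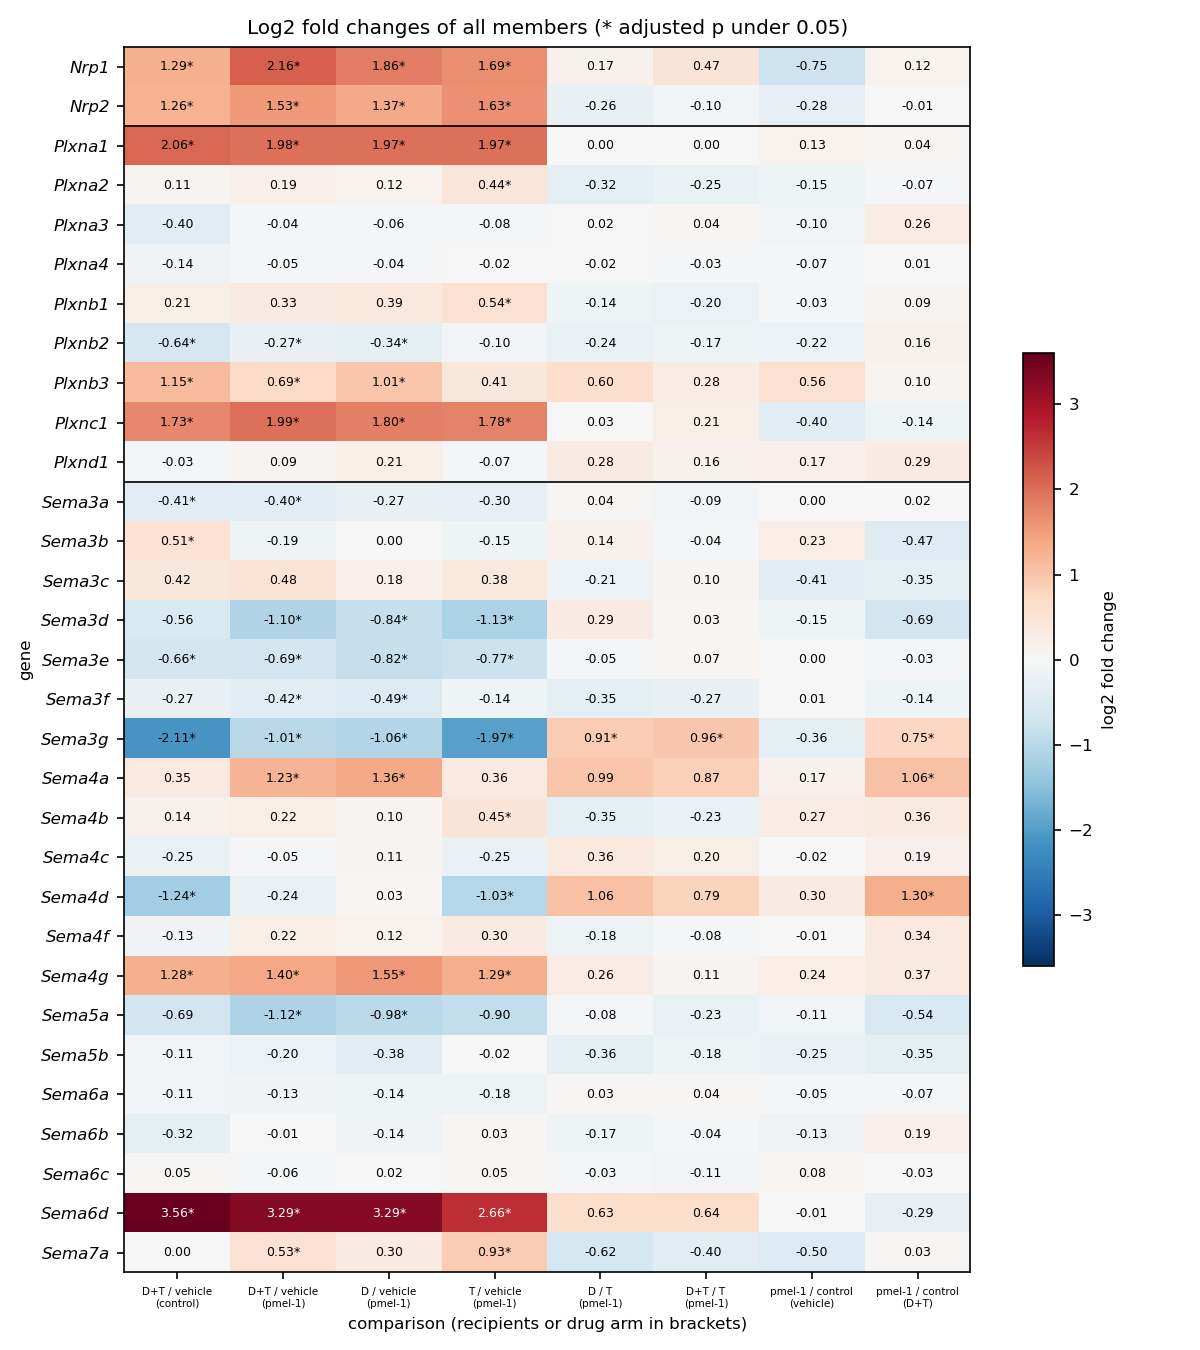
Log2 fold change (colour and printed number) of all 31 genes (rows, neuropilins, plexins and semaphorins from the top) in 8 comparisons (columns; D is dabrafenib, T trametinib, and the recipients or the drug arm are in brackets). Stars mark an adjusted p under 0.05; the 4 columns against vehicle carry nearly all stars, and Sema3g is the only starred gene in the columns of D / T and D+T / T.

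On dabrafenib the receptors read high on both arrays. Nrp2 was at 11.21 and 11.40, Plxna1 at 9.41 and 9.79, Plxnc1 at 10.11 and 10.16, and Nrp1 at 9.59 and 10.49. On trametinib Nrp2 was at 11.53 and 11.61, Plxna1 at 9.64 and 9.57, Plxnc1 at 10.21 and 10.00, and Nrp1 at 10.25 and 9.50. All these arrays lay above both vehicle arrays. The rise of Plxna1 was 1.97 ± 0.14 on either drug, that of Plxnc1 1.80 ± 0.15 and 1.78 ± 0.15, and that of Nrp2 1.37 ± 0.14 and 1.63 ± 0.14.

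The direct differences between the single drugs were small for these receptors. Dabrafenib minus trametinib was 0.00 for Plxna1 (95% interval -0.31 to 0.31), 0.03 for Plxnc1 (-0.30 to 0.36) and -0.26 for Nrp2 (-0.57 to 0.04). For Nrp1 it was 0.17 (-0.69 to 1.02), a wider interval that leaves room for a difference in either direction.

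Sema6d read 12.37 and 12.70 on dabrafenib and 11.95 and 11.86 on trametinib, so that its trametinib arrays were the lowest of all drug-treated arrays. It rose by 3.29 ± 0.15 (9.78-fold) and 2.66 ± 0.15 (6.31-fold). The difference between the drugs was 0.63 ± 0.15 and was not called (adjusted p = 0.0999), and likewise the combination exceeded trametinib by 0.64 ± 0.14 (adjusted p = 0.0621). Sema4g read 10.19 and 9.88 on dabrafenib and 9.54 and 10.01 on trametinib, rises of 1.55 ± 0.17 and 1.29 ± 0.17.

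Sema3g was the only member called between the single drugs. It read 7.20 and 7.67 on dabrafenib and 6.49 and 6.57 on trametinib, with no overlap between the 2 drugs. Against vehicle it fell by 1.06 ± 0.18 on dabrafenib and by 1.97 ± 0.18 on trametinib. The difference of 0.91 ± 0.18 was called (adjusted p = 0.0442), 1 of 31 members, where 0.776% of all genes were (0.588% higher and 0.189% lower on dabrafenib). That call was lost in 15 of 24 alternative analyses, 10 of them with 1 array left out, at values of 0.64 to 0.94 and an adjusted p of up to 0.540. The combination in pmel-1 recipients likewise read higher than trametinib, by 0.96 ± 0.16 (adjusted p = 0.0215), again the only member called, where 1.10% of all genes were (0.856% higher and 0.239% lower on the combination). Without either trametinib array or without combination replicate 1 or 2 this call was lost too (0.84 to 0.99, adjusted p of up to 0.288).

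Other members were called for 1 single drug. Sema4a read 6.77 and 7.53 on dabrafenib, a rise of 1.36 ± 0.21 (adjusted p = 5.84e-04), and 6.26 and 6.05 on trametinib (0.36 ± 0.21, adjusted p = 0.211). Sema4d read 7.26 and 7.78 on dabrafenib (0.03 ± 0.24) and 6.64 and 6.27 on trametinib, a fall (-1.03 ± 0.24, adjusted p = 0.00553) that was lost without vehicle replicate 1 (-0.69) or trametinib replicate 2. Sema7a read 8.80 and 8.88 on dabrafenib (0.30 ± 0.13, adjusted p = 0.0760) and 9.53 and 9.40 on trametinib, a rise of 0.93 ± 0.13 (adjusted p = 2.45e-04). The tests between the drugs did not call these genes, at 0.99 ± 0.21 for Sema4a (adjusted p = 0.0660), 1.06 ± 0.24 for Sema4d (adjusted p = 0.0756) and -0.62 ± 0.13 for Sema7a (adjusted p = 0.0528).

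On trametinib 3 members rose that were not called on dabrafenib or the combination. The tests of trametinib against dabrafenib and against the combination called none of the 3, so a difference between the drugs is not shown. Plxnb1 read 9.54 and 9.64 on vehicle and 10.02 and 10.24 on trametinib (0.54 ± 0.17, adjusted p = 0.0273). Sema4b read 9.53 and 9.26 against 10.00 and 9.69 (0.45 ± 0.14, adjusted p = 0.0216), and Plxna2 6.38 and 6.37 against 6.85 and 6.77 (0.44 ± 0.16, adjusted p = 0.0478). Means of Plxnb1, Sema4b and Plxna2 were 9.98, 9.50 and 6.49 on dabrafenib and 9.92, 9.62 and 6.57 on the combination. The second probe set of Plxnb1 read 8.97 and 8.71 on vehicle and 9.59 and 9.81 on trametinib. It read 9.09 and 9.59 on dabrafenib and 9.24, 9.38 and 9.29 on the combination. The second probe set of Sema4b went the other way on trametinib (-0.21 ± 0.12, adjusted p = 0.188), and the mean of its probe sets gave 0.12 (adjusted p = 0.416). No treated array overlapped vehicle on the probe sets used, but each of the 3 calls was lost in at least 4 of 24 alternatives. Left-out arrays that ended a call included vehicle replicate 2 for all 3, with adjusted p of up to 0.162, 0.189 and 0.179 over all omissions.

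Plxnb3 and the falling members Sema3f and Sema5a were called on dabrafenib and not on trametinib, but the test between the drugs called none of them. Sema5a read 6.96 and 7.03 on vehicle, 6.29 and 5.75 on dabrafenib and 6.30 and 5.90 on trametinib, so its level was much alike on both drugs. Sema3f read 10.05 and 9.96 on vehicle, 9.61 and 9.41 on dabrafenib and 9.72 and 10.00 on trametinib. Plxnb3 read 9.82 and 10.41 on dabrafenib (1.01 ± 0.25, or 0.51 with the 3′ to 5′ ratio as a covariate, adjusted p = 0.288) and 9.51 and 9.53 on trametinib (0.41 ± 0.25, adjusted p = 0.236). All 3 calls were lost without dabrafenib replicate 2 or vehicle replicate 1, with adjusted p over all omissions of up to 0.0874 for Plxnb3, 0.128 for Sema3f and 0.265 for Sema5a. Sema3d read 10.58 and 9.66 on dabrafenib (-0.84 ± 0.26), where 1 array decides the value, since it was -0.38 without replicate 2, the array high in Adipoq, and -1.30 without replicate 1. On trametinib Sema3d read 9.75 and 9.91 (-1.13 ± 0.26, adjusted p = 0.00497). Sema3e was 6.58 and 6.32 on dabrafenib and 6.48 and 6.52 on trametinib, falls of 0.82 ± 0.18 and 0.77 ± 0.18.

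The combination against dabrafenib called 0 of 31 members by limma, with 0 at an unadjusted p under 0.05, and 0 of all genes (0.00%), with 246 at an unadjusted p under 0.05. The smallest p-values were those of Sema7a (0.23 ± 0.12) and Sema4c (-0.16 ± 0.10). Sema7a read 8.80 and 8.88 on dabrafenib and 8.99 to 9.17 on the combination, which do not overlap, and Sema4c 9.71 and 9.78 against 9.47 to 9.71. For Sema6d the difference was 0.00 (95% interval -0.30 to 0.31) and for Plxna1 0.01 (-0.28 to 0.29).

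The transfer itself was compared between pmel-1 and control recipients within each treatment. On vehicle 0 of 31 members were called by limma (0.00% of all genes), with 3 members at an unadjusted p under 0.05 and 1822 of all genes. The smallest p-values were those of Sema7a (-0.50 ± 0.13, adjusted p = 0.179), at 9.05 and 9.02 against 8.36 and 8.71, and of Plxnc1 (-0.40 ± 0.15, adjusted p = 0.290), at 8.91 and 8.55 against 8.20 and 8.46. Both were lower on both pmel-1 arrays than on either control array.

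On the combination Sema4d, Sema4a and Sema3g were higher in pmel-1 than in control recipients, which is 3 of 31 members where 4.24% of all genes were called (2.66% higher and 1.58% lower). Sema4d was higher by 1.30 ± 0.22 (2.47-fold, adjusted p = 0.0101), Sema4a by 1.06 ± 0.20 (2.08-fold, adjusted p = 0.0166) and Sema3g by 0.75 ± 0.16 (1.68-fold, adjusted p = 0.0307). None of the 3 overlapped between these groups. All 3 calls were lost without either control combination array, at adjusted p of up to 0.109, 0.122 and 0.131, and with the 3′ to 5′ ratio as a covariate, at 0.86, 0.54 and 0.45. That of Sema4a was lost too without combination replicate 1 or 2 of the pmel-1 recipients, and that of Sema3g without either of these or either pmel-1 vehicle array. The second probe set of Sema4d differed by 0.15 ± 0.16 (adjusted p = 0.617).

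**Figure D5:**
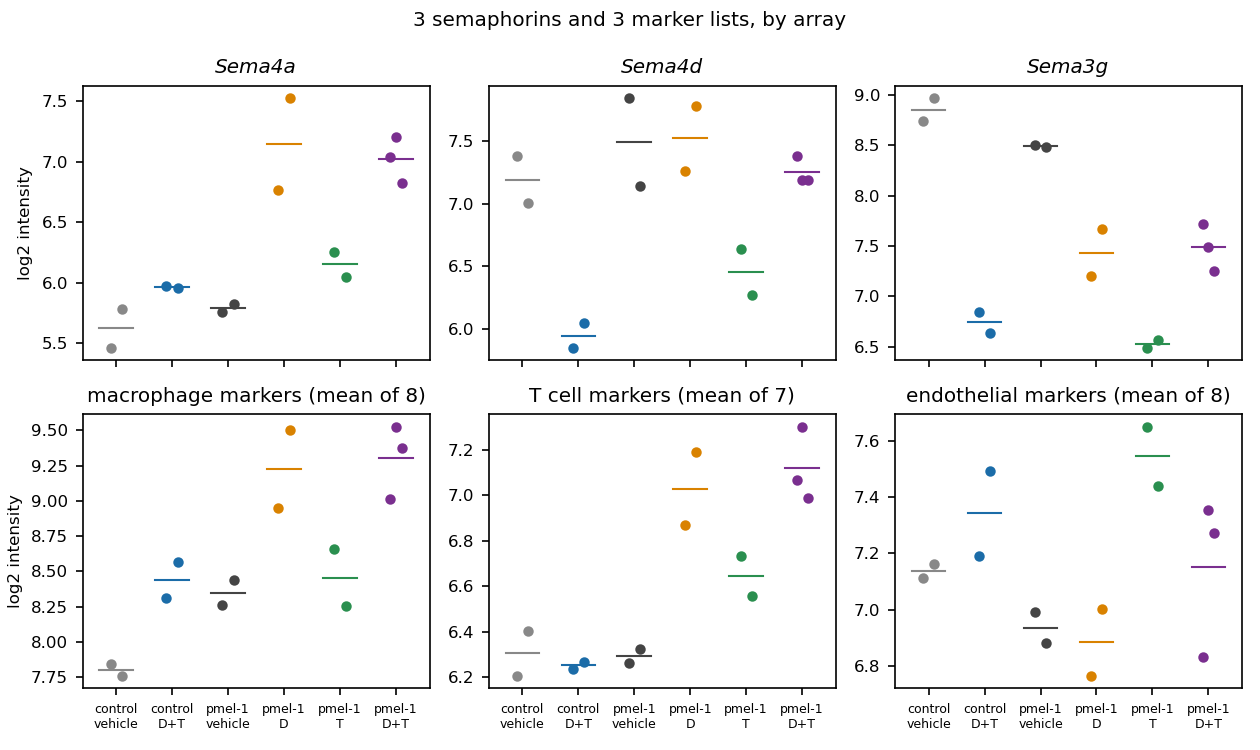
Log2 intensity (vertical axes) of Sema4a, Sema4d and Sema3g (top) and the mean log2 intensity of 3 marker lists (bottom) on each array, in the 6 groups; dots are arrays and bars group means. Sema4a and the macrophage and T cell means are highest on dabrafenib and the combination in pmel-1 recipients, and Sema3g is lowest on trametinib in pmel-1 and the combination in control recipients.

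Immune markers differed between the same groups. T cell markers (6 of 7 tested) averaged 6.24 to 6.27 on the combination in control recipients and 6.99 to 7.30 in pmel-1 recipients. They averaged 6.21 to 6.40 on the 4 vehicle arrays, 6.87 to 7.19 on dabrafenib and 6.56 to 6.73 on trametinib. Cd2 was never above the filter but is part of the mean. On the combination Cd3g read 4.05 and 4.17 in control and 6.35, 7.42 and 6.59 in pmel-1 recipients. Cd8a (6.51 and 6.50 against 6.46, 6.52 and 6.49) and Thy1 (9.12 and 9.70 against 8.93, 9.70 and 9.49) overlapped. Macrophage markers followed the order given above, with dabrafenib and the combination of pmel-1 recipients highest. Dendritic cell markers (3 of 5 tested) averaged 5.59 to 5.70 on the combination in control and 5.87 to 6.12 in pmel-1 recipients. Xcr1 and Ccr7 were not above the filter but are part of the mean. Itgax read 5.67 and 5.88 in control and 7.23, 7.43 and 6.84 in pmel-1 recipients. Flt3 (6.62 and 6.57 against 6.62, 6.55 and 6.62) and Zbtb46 (5.94 and 6.00 against 6.26, 5.79 and 6.10) overlapped. Endothelial markers (8 of 8 tested) averaged 7.19 to 7.49 and 6.83 to 7.36 on the combination in control and pmel-1 recipients, and 7.44 to 7.65 on trametinib. Their part in the differences of Sema4a, Sema4d and Sema3g was not tested.

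Further genes of the pathway came from a list of 53 co-receptors, other neuropilin ligands, GTPases with their regulators, cytoskeletal effectors and proteases, of which 50 were tested. Under the combination, averaged over recipients, 17 rose and 10 fell, a share of 54.0% against the 52.6% of all genes. Met, the hepatocyte growth factor receptor that associates with Plxnb1, read 11.16 and 10.55 on vehicle and 13.28 and 13.07 on the combination in control recipients. The pmel-1 arrays gave 10.92 and 11.13 against 12.98, 12.95 and 13.19. It rose 4.49-fold (2.17 ± 0.12, adjusted p = 2.22e-07), with no overlap.

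Mical3, an actin-oxidising enzyme of the MICAL family that acts below plexins, rose by 1.48 ± 0.12, and Rnd2, a small GTPase that binds plexins, by 1.29 ± 0.12. Tyrobp, the myeloid adaptor through which Plxna1 can signal, rose by 1.24 ± 0.15, and it is also a gene of macrophages. Of the 7 macrophage markers tested, 6 were called up in the same comparison and 0 down. In pmel-1 recipients Mrc1 overlapped and Cd163 read lower on the combination, as given above. The part of macrophages in the rise of Tyrobp was not tested. Farp1, an exchange factor that binds A plexins, fell by 1.27 ± 0.12, and Dpysl3, a collapsin response mediator, by 0.76 ± 0.08. Limk1, the kinase of cofilin, fell by 0.62 ± 0.10.

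Of the growth factors that share the neuropilins, Pgf read 7.66 and 7.85 on vehicle and 6.63 and 6.49 on the combination in control recipients, and 8.58 and 7.64 against 7.02, 6.99 and 6.84 in pmel-1 recipients. It fell by 1.18 ± 0.15 on the log2 scale. Vegfa, named after its value was seen, fell by 1.18 ± 0.23 (adjusted p = 9.86e-04). Of the other 2 on the list, Vegfb rose by 0.72 ± 0.13 (adjusted p = 7.53e-04), and Vegfc differed by 0.30 ± 0.16 (adjusted p = 0.137). The 3 that were called did not share a direction.

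In the single-drug comparisons the pathway list gave 18 calls of 50 on dabrafenib (11 up, 7 down) and 17 on trametinib (10 up, 7 down). These shares of 36.0% and 34.0% lie below the 41.4% and 38.6% of all genes. Met rose by 2.07 ± 0.18 and 1.91 ± 0.18. Between the drugs, Tyrobp was higher on dabrafenib than on trametinib by 1.32 ± 0.22 (adjusted p = 0.0256). Chl1, an adhesion molecule that joins neuropilin complexes, read 10.21 and 10.45 on vehicle, 10.22 and 9.58 on dabrafenib and 8.63 and 8.84 on trametinib, and was higher on dabrafenib by 1.16 ± 0.23 (adjusted p = 0.0458). On the combination Tyrobp was higher in pmel-1 than in control recipients by 0.99 ± 0.20 (adjusted p = 0.0242), while Rasa1, a GTPase-activating protein, was lower by 0.67 ± 0.12 and Rnd3 by 0.93 ± 0.20.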

How the data were processed

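Total RNA of SM1 tumours was labelled and hybridised to 13 arrays. The deposited values are 1 log2 intensity per probe set and array, made by the authors with RMA and the affy package per the submitters' processing notes, without versions. How probe sets were defined or filtered before is not stated in the sources used. Array maxima ran from 14.94 to 15.06, and precision is limited by the small number of arrays.

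Of 45101 probe sets, 34945 had exactly 1 gene symbol. Each of 18193 symbols was represented by its brightest probe set on average. To be tested, a gene had to exceed 5.79 (the 40th percentile of the table) on at least 2 arrays, which 13785 did. In R 4.3.3, limma 3.58.1 fitted 1 mean per group to the 13 arrays together, followed by eBayes with 7 residual degrees of freedom, in 11 comparisons, each with Benjamini-Hochberg adjustment over all genes tested. The fit was tested on simulated data. Promoter windows are the 250 bases before RefSeq starts (GRCm38.p6).

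Each-array values are given for up to 12 members with the largest called change under the combination averaged over recipients, and elsewhere for up to 3 further called members or, with none called, the 2 with the smallest p. A few neighbours of these are given beside them. Pathway genes named are the 4 rises and 4 falls with the smallest p and up to 2 each way elsewhere. The members, lists and tests were chosen with earlier results of these data known. Alternatives changed the filter, the probe set rule, the scaling, the weights, the arrays used and the covariates.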

Additional observations from a re-analysis of the deposited data

How the results depend on the processing

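Of 79 called values of the members, 42 kept their call under each of the 24 alternatives that tested them, 37 lost it under at least 1, and 0 changed sign. The calls of Sema6d, Plxna1, Plxnc1, Nrp2, Sema4g and Sema3g against vehicle are among those kept in each drug comparison. With the 3′ to 5′ ratio as a covariate 50 of 79 calls remained, and the members called were 7 rather than 16 for the combination in pmel-1 recipients, 7 rather than 14 for dabrafenib, 8 rather than 14 for trametinib, 4 rather than 1 between the single drugs, 2 rather than 1 for the combination against trametinib and 0 rather than 3 for the transfer under the combination. For the combination averaged over recipients, Sema3a, Sema3f, Sema5a and Sema7a lost their call with this covariate. The cause of these changes was not tested. Without the arrays high in Adipoq or Acta1 dabrafenib had 9, and both comparisons with trametinib among treated tumours had 0 rather than 1.

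Between the single drugs the count was 2 with the filter at the median, with the mean of all probe sets and with quantile normalization again, and 0 with only the arrays compared. For the combination against trametinib it was 2 with quantile normalization again, only the arrays compared or an intensity trend, and 3 with array weights. Leaving out 1 array at a time gave 16 to 18 members for the combination averaged over recipients, 9 to 13 in control and 9 to 16 in pmel-1 recipients, 0 to 1 for their difference, 9 to 15 for dabrafenib, 10 to 15 for trametinib, 0 to 4 between the single drugs, 0 throughout for the combination against dabrafenib, 0 to 3 for it against trametinib, 0 throughout for the transfer on vehicle and 0 to 5 for the transfer under the combination. Where this left a group with 1 array, that array was assumed to vary like the other groups.

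Deviations from the group means of same-numbered arrays correlated at -0.46 to 0.45, over 0.1 in 4 of 23 pairs. Those of differently numbered arrays correlated at -0.45 to 0.46. In a group of 2 the deviations mirror each other, so these values cannot decide whether the numbers pair the arrays. With the replicate number as a block, the members called were 16 for the combination averaged over recipients, 10 in control and 14 in pmel-1 recipients, 13 for each single drug, 0 between the single drugs, 0 for the combination against trametinib and 2 for the transfer under the combination. The other scalings moved the median change of all genes by less than 0.1. With 2 arrays in most groups, single arrays decide many of the smaller calls.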
